A study of Rattus norvegicus with 12 samples.

Results

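The presynaptic vesicle release machinery is described here through 46 genes, chosen by name, whose products fill, dock, prime, fuse and recover synaptic vesicles. Of these, 45 were measured, by 72 probe sets that each carried a single gene symbol, out of 14217 genes measured in all; Doc2a, a calcium-binding vesicle protein, was not analysed here. Each gene's value is the log2 of its deposited ratio less the median of its array, averaged over its probe sets. RNA came from organotypic hippocampal slice cultures, thin slices of brain kept alive for weeks on a porous insert. Wistar rats of postnatal day 7 supplied the hippocampi, which were cut at 350 µm and held for 26 days at 33 °C. The 7B12 cultures received a monoclonal antibody to residues 763 to 820 of the protein Nogo-A, while the 11C7 cultures received one to residues 623 to 640. The IgG cultures received a control IgG, and the NT cultures were not treated. The dose of all 3 antibodies was 3 µg/ml, applied for 5 days starting on day 21 in vitro, and medium was changed every 2 days. Each of the 4 groups had 3 arrays, each with RNA of 24 pooled cultures, and the titles number them 1, 2 and 3 in every group. Replicates were separate cultures from different animals, per the labels, which do not say what arrays of the same number share. Precision is limited throughout by having 3 arrays in a group.

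An action potential opens calcium channels at the active zone, calcium binds synaptotagmins, and SNARE proteins on vesicle and plasma membrane zip together to fuse them. Rab3, RIM, Munc13 and complexin proteins hold vesicles ready for this step, NSF and its adaptors take spent SNARE complexes apart, and dynamin, amphiphysin and synaptojanin recover the membrane. In the hippocampus these proteins fill the terminals of principal neurons and interneurons, and their transcripts lie in the neuronal cell bodies of the slice. Nogo-A, the antibodies' target and the product of Rtn4, sits in membranes of oligodendrocytes and some neurons and is known as a brake on neurite growth. The deposited ratios carry no level, so a gene's level cannot be set against another gene's, and the presence of neurons cannot be read from marker levels.

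In cultures treated with 7B12 none of the 45 release genes passed the threshold of 0.05 on the adjusted p against the 6 control arrays of IgG and NT. The share of all genes that passed was 0%. At an unadjusted p under 0.05 the count of release genes was also 0, against 6.05% of all genes. Adjusted p came from limma with Benjamini-Hochberg adjustment over all genes throughout. The median difference of the release genes was 0.021, with 24 above 0 and 21 below, and that of all genes was 0.012. No release gene had its 3 arrays of 7B12 all above or all below the 6 control arrays, where 2.52% of all genes lay above and 1.08% below. The replicate number, which the fit leaves out, held a median of 75.8% of the release genes' sum of squares, against 38.1% over all genes. That spread lies inside every group. The 0 counts of this and the later group comparisons without the number are thus no measure of an absent response. With the number added to the fit, the 7B12 count at an unadjusted p under 0.05 was again 0 (11.8% of all genes).

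The 6 release genes with the smallest p in 7B12, all with an adjusted p of 0.9989 or more, belonged to priming, endocytosis, adhesion, vesicle tethering and SNARE recycling. Unc13b, a Munc13 priming factor, stood at -0.028, 0.56 and -1.49 on the 7B12 arrays, 0.84, -0.05 and 0.038 on the 11C7 arrays, -0.0044, -0.05 and 0.53 on the IgG arrays, and 0.45, 0.9992 and 0.043 on the NT arrays, each given for numbers 1, 2 and 3. The low array was 7B12 3, and the groups overlapped. Its log2 difference between 7B12 and the controls, with its standard error (SE), was -0.65 ± 0.43. Syn3, a synapsin that tethers vesicles, stood at -1.65, -1.08 and -0.70 on the 7B12 arrays, -1.95, -1.61 and -1.03 on the 11C7 arrays, -2.20, -0.51 and -2.79 on the IgG arrays, and -2.85, -0.55 and -2.72 on the NT arrays, in the same order of numbers. Its lowest values were NT 1 and the IgG and NT arrays numbered 3, while those numbered 2 were above every 7B12 array, and its difference was 0.79 ± 0.61. The only probe set of Syn3 had a 12-array median of 0.31, under 1, so no other probe set could be set beside it. Napa, the alpha-SNAP adaptor of NSF, had the smallest SE of the release genes, with values of -0.16, 0.23 and 0.079 on the 7B12 arrays, 0.0073, 0.21 and 0.042 on the 11C7 arrays, -0.19, 0.13 and -0.22 on the IgG arrays, and -0.27, 0.20 and -0.063 on the NT arrays in that order. Its difference in 7B12 was 0.12 ± 0.16, with a 95% interval of -0.23 to 0.47, and the groups overlapped.

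Snap91, Cadps and Nrxn2 were the other 3. Snap91, a clathrin adaptor of vesicle recovery, stood at -0.51, -0.24 and -0.19 on the 7B12 arrays, -0.54, -0.37 and 0.02 on the 11C7 arrays, -1.62, -1.11 and -0.91 on the IgG arrays, and -1.89, 0.92 and -0.69 on the NT arrays for numbers 1, 2 and 3. NT 2 was its highest array and NT 1 its lowest, and its difference was 0.57 ± 0.49. It has 1 probe set with a 12-array median under 1, and without that probe set the difference was -0.063. Cadps, a priming factor for dense-core vesicles, stood at -0.23, -0.95 and 0.24 on the 7B12 arrays, -0.23, -0.81 and -1.34 on the 11C7 arrays, -0.52, -0.84 and -1.86 on the IgG arrays, and -0.20, -0.89 and 0.11 on the NT arrays in the same order. IgG 3 and 11C7 3 were low, and the difference of 0.38 ± 0.39 was -0.040 without its probe set of median under 1. Nrxn2, a neurexin that links terminals to their targets, stood at 0.23, 0.30 and -1.02 on the 7B12 arrays, 0.023, -0.28 and 0.11 on the 11C7 arrays, 0.23, 0.25 and -0.14 on the IgG arrays, and 0.16, 0.43 and -0.23 on the NT arrays in that order. 7B12 3 was the lowest array, and the difference was -0.28 ± 0.29; without 7B12 3 it was 0.15.

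In cultures treated with 11C7 the count of release genes past the adjusted p was again 0, as it was over all genes (0%). At an unadjusted p under 0.05 it was 0 of 45, against 2.99% of all genes. Here 11 release genes lay above the controls and 34 below, with a median of -0.17 against 0.031 over all genes. The medians of the release genes on single arrays had a pooled SD of 0.92 within groups. That SD contains the spread between the replicate numbers, which are the same in every group, so it is not the error of this median. The median SE of single genes was 0.68, and 0.28 with the number fitted as a block. In the fit without the replicate number, the 11C7 median turned to 0.073 without NT 2, 0.0070 without IgG 2 and 0.23 without 11C7 1. It was -0.46 without 11C7 2. In that fit, leaving out 1 array also leaves the numbers unbalanced between the groups. With the number fitted as a block, the 11C7 median was -0.12 without NT 2, -0.19 without IgG 2 and -0.32 without 11C7 1. It was 0.069 without 11C7 2. With all arrays, scaled to general neuron markers, it was 0.034. No release gene had all 3 arrays of 11C7 outside the range of the controls; over all genes 0.935% lay above and 0.788% below.

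Syngr1, a tetraspan protein of the vesicle membrane, had the smallest p in 11C7. It stood at -0.35, 0.12 and -0.14 on the 7B12 arrays, 0.22, 0.30 and 0.19 on the 11C7 arrays, -0.14, -0.65 and 0.37 on the IgG arrays, and -0.52, -0.60 and 0.18 on the NT arrays, for numbers 1, 2 and 3. The 3 arrays of 11C7 lay within 0.11 of each other and 1 control, IgG 3, was above them, so that the groups overlapped. Its difference was 0.46 ± 0.25 (adjusted p = 1.000), with a 95% interval of -0.087 to 1.02. Sv2c, a vesicle glycoprotein and one of the SV2 family, stood at 0.30, -0.55 and 0.56 on the 7B12 arrays, 0.29, -0.25 and 1.19 on the 11C7 arrays, 0.068, -0.70 and -0.013 on the IgG arrays, and -0.14, -0.12 and 0.62 on the NT arrays in that order. Its highest array was 11C7 3, and its difference was 0.46 ± 0.37. Syt3, a synaptotagmin, stood at -0.32, 0.77 and 0.047 on the 7B12 arrays, -0.52, -0.35 and 0.13 on the 11C7 arrays, -0.73, 0.34 and -0.0079 on the IgG arrays, and -0.06, 0.85 and 0.22 on the NT arrays in that order. NT 2 and 7B12 2 were high and IgG 1 low, and the difference in 11C7 was -0.35 ± 0.32. Rims2, an active zone scaffold that recruits calcium channels, differed by -0.40 ± 0.37, Snap91 by 0.58 ± 0.49 and Napa by 0.16 ± 0.16. Without its probe set of median under 1, Snap91 differed by -0.11 in 11C7.

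The precision of these differences was uneven across the genes. Standard errors in each antibody ran from 0.16 in Napa to 1.18 in Slc17a7, with a median of 0.68. The 95% interval lay within a 2-fold change in either direction in 10 of 45 release genes for 7B12 (Syngr1, Sv2a, Sv2c, Syt3, Syt5, Vamp1, Napa, Rims2, Synj1 and Nrxn2) and in 6 for 11C7 (Sv2a, Vamp1, Napa, Cadps, Synj1 and Nrxn2). For the others a 2-fold change lay inside the interval. These intervals come from a fit without the replicate number and so contain the spread between numbers. With the number fitted as a block, 27 release genes for 7B12 and 25 for 11C7 had intervals within a 2-fold change, Snap25 included in both. Without the block Snap25, a SNARE of the plasma membrane, differed by 0.06 ± 1.05 in 7B12, with an interval of -2.30 to 2.42. In 11C7 it differed by -0.16 ± 1.05, with -2.51 to 2.20. Sv2a, a vesicle glycoprotein, was measured more tightly, at -0.016 ± 0.38 (-0.86 to 0.82) in 7B12 and -0.032 ± 0.38 (-0.87 to 0.81) in 11C7. Rtn4 itself differed by -0.080 ± 0.13 in 7B12 and by 0.029 ± 0.13 in 11C7. These comparisons share their control arrays and are given side by side for that reason.

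**Figure D1:**
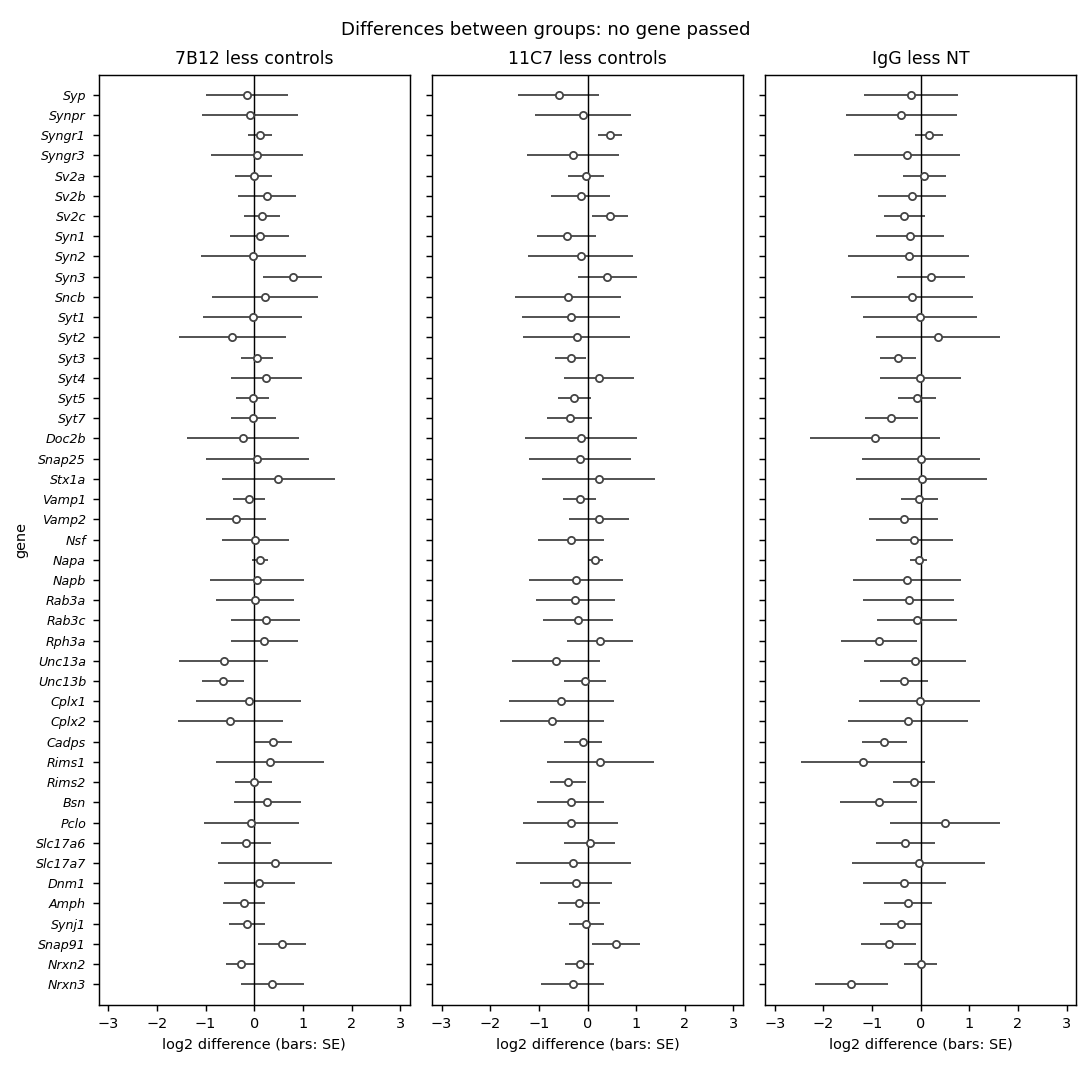
Log2 difference (horizontal axis) of each of the 45 release genes (rows) for 7B12 less the controls, 11C7 less the controls and IgG less NT, with bars of 1 SE from limma. The open points mark that no gene passed, and 34 of 45 points lie below 0 in the 11C7 panel, against 21 in the 7B12 panel.

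With 7B12 and 11C7 combined against the controls, 0 of 45 release genes passed either the adjusted (0% of all genes) or the unadjusted threshold (4.89% of all genes), with 14 above 0 and 31 below and a median of -0.090. The smallest p were those of Snap91 (0.58 ± 0.40), Syngr1 (0.29 ± 0.20), Syn3 (0.60 ± 0.50), Napa (0.14 ± 0.13), Sv2c (0.31 ± 0.30) and Unc13b (-0.35 ± 0.35). Snap91 was at -0.086 without its probe set of median under 1, and Syn3 had only a probe set of median under 1. Between the antibodies, 7B12 less 11C7 gave a median of 0.24, with 32 release genes above 0 and 13 below, and 0 passed either threshold (0% and 3.69% of all genes). Syngr1 was the only one of the 45 whose 3 arrays of 7B12 all lay on the same side of the 3 of 11C7. They were below them, as in 3.43% of all genes, where 3.72% lay above, and the difference was -0.36 ± 0.29. An F test over the 4 groups gave 0 of 45 at either threshold (0% and 3.63% of all genes).

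In IgG against NT, a comparison of 2 sets of control cultures, 7 release genes lay above 0 and 38 below, with a median of -0.22 against -0.0038 over all genes. None of the 45 passed the adjusted (0% of all genes) or the unadjusted threshold (1.91% of all genes). No release gene had its 3 arrays of IgG all above (2.24% of all genes) or all below (1.94%) the 3 of NT. The median was 0.27 without NT 2 and 0.17 without IgG 1 in the fit without the replicate number. With the number fitted as a block it was -0.037 without NT 2 and -0.24 without IgG 1. Nrxn3, a neurexin, had the smallest p and stood at -1.02, 0.81 and -2.002 on the 7B12 arrays, -1.30, -0.46 and -2.47 on the 11C7 arrays, -2.43, -2.02 and -1.02 on the IgG arrays, and -1.11, 0.24 and -0.31 on the NT arrays for numbers 1, 2 and 3. IgG 1 and IgG 2 were below all NT arrays, and the difference was -1.43 ± 0.75. When probe sets were fitted, its probe set of median 1 differed by -0.39 ± 0.89, and that of median under 1 by -2.47 ± 1.24. Syt7, a synaptotagmin of slow, asynchronous release, stood at -0.95, 0.026 and -0.083 on the 7B12 arrays, -1.68, -0.32 and -0.026 on the 11C7 arrays, 0.45, -1.30 and -0.98 on the IgG arrays, and 0.22, 0.058 and -0.31 on the NT arrays in that order. Bsn, the active zone scaffold bassoon, stood at -1.40, 1.29 and 0.32 on the 7B12 arrays, -0.60, 0.30 and -1.34 on the 11C7 arrays, -1.70, -0.33 and 0.13 on the IgG arrays, and -0.77, 1.29 and 0.17 on the NT arrays. For both genes the IgG and NT arrays overlapped, at -0.60 ± 0.54 for Syt7 and -0.86 ± 0.79 for Bsn. Of the 3 probe sets of Syt7, 2 had a median under 1, and the other differed by -0.26 ± 0.94. Cadps (-0.75 ± 0.45), Syt3 (-0.47 ± 0.37) and Snap91 (-0.66 ± 0.56) completed the 6 with the smallest p, and Snap91 was at 0.077 without NT 2. In their probe sets of median 1, Cadps differed by -0.20 ± 0.45 and Snap91 by -0.21 ± 0.50.

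Across the replicate numbers the release genes differed widely. In limma, with group and number fitted together, 30 of 45 passed the F test over the numbers at an adjusted p under 0.05, against 23.6% of all genes, and 33 passed at an unadjusted p under 0.05 (39.2%). Adjusted p of the 30 ran from 0.00151 to 0.0395. Arrays numbered 2 were higher than those numbered 1 in 30 release genes (9.78% of all genes) and lower in 1, Slc17a6 (9.17%). Relative to general neuron markers, 10 were higher and 16 lower. That scaling changes the reference of every gene: the median for number 2 against 1 became -2.05 over all genes and -0.38 over the release genes. Arrays numbered 3 were higher than those numbered 1 in 21 (9.31%) and lower in 2, Slc17a6 and Synj1 (9.71%). Number 2 exceeded number 3 in 11 (2.45%) and was lower in 1, Sv2c (1.78%). The median difference of the release genes was 1.64 for number 2 against 1 and 0.94 for number 3 against 1, and over all genes -0.022 and 0.014. Number 2 was at least 4-fold above number 1 in 18 of 45 (2.29% of all genes), and at least 4-fold below it in 0 (0.401%). In RNA of whole slices, fewer neurons and less of a transcript per neuron cannot be told apart.

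**Figure D2:**
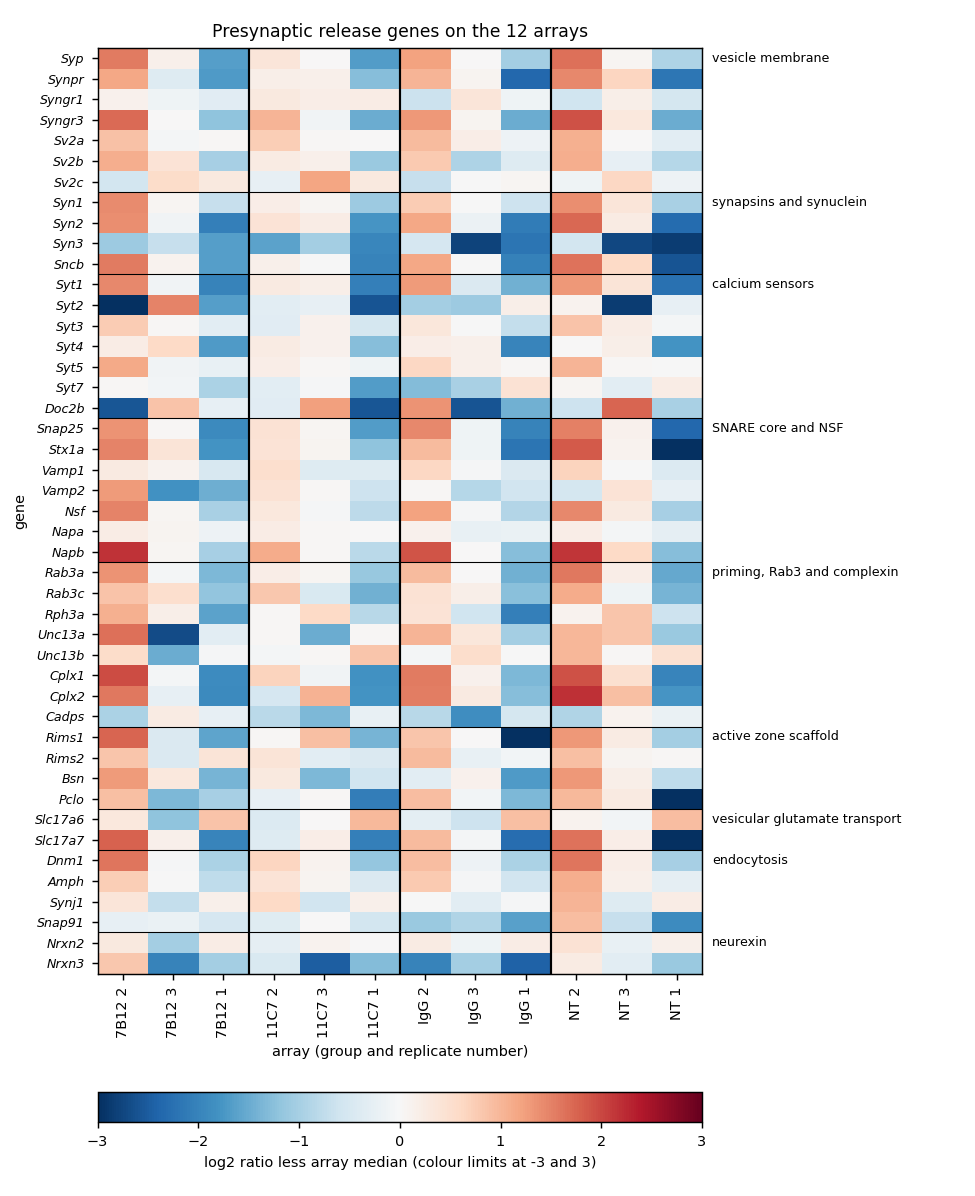
Log2 ratio less the array median, as colour, for the 45 release genes (rows, in functional classes, on the array median scale) on the 12 arrays (columns, by group and replicate number). Within each group the array numbered 2 is mostly red and the array numbered 1 mostly blue, and 12 genes had every number 2 array above every number 3 array above every number 1 array.

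The mean of the 45 genes was 0.74 on 7B12 2, 0.12 on 11C7 2, 0.47 on IgG 2 and 0.89 on NT 2. It was -0.20, -0.062, -0.31 and 0.084 on the arrays numbered 3 of 7B12, 11C7, IgG and NT, and -0.95, -0.96, -1.06 and -1.08 on those numbered 1. All 4 arrays numbered 2 were thus above all 4 numbered 3, which were above all 4 numbered 1. By group the means were -0.14 ± 0.85 in 7B12, -0.30 ± 0.58 in 11C7, -0.30 ± 0.76 in IgG and -0.033 ± 0.99 in NT (SD, n = 3), closer to each other than the arrays within any group. In a split of each gene's sum of squares, the number held a median of 75.8% and the group 5.42% over the release genes, against 38.1% and 18.3% over all genes. The share of the number was highest in Syngr3, at 96.4%, and over 50% in 33 of 45 (37.7% of all genes).

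Of the 7 vesicle membrane genes 6 differed among the numbers. Syngr3, synaptogyrin-3, a tetraspan protein of the vesicle membrane, stood at 1.70 in 7B12, 1.02 in 11C7, 1.31 in IgG and 1.92 in NT on the arrays numbered 2. Syngr3 was at 0.0045 in 7B12, -0.11 in 11C7, 0.078 in IgG and 0.31 in NT on those numbered 3, and at -1.21 in 7B12, -1.50 in 11C7, -1.49 in IgG and -1.48 in NT on those numbered 1. The 3 numbers did not overlap, with every array numbered 2 highest and every array numbered 1 lowest. Its difference was 2.91 ± 0.15 (adjusted p = 0.000569) for number 2 against 1, a 7.51-fold difference, and 1.49 ± 0.15 (adjusted p = 0.00353) for 3 against 1. Syp, synaptophysin, the most widely used label of vesicles, stood at 1.56 in 7B12, 0.37 in 11C7, 1.20 in IgG and 1.66 in NT on the arrays numbered 2. Syp was at 0.14 in 7B12, 0.0015 in 11C7, 0.023 in IgG and 0.047 in NT on those numbered 3, and at -1.66 in 7B12, -1.67 in 11C7, -1.03 in IgG and -0.93 in NT on those numbered 1. The numbers did not overlap, with 11C7 2 the lowest of those numbered 2, and number 2 exceeded 1 by 2.52 ± 0.23 (adjusted p = 0.00108). Synpr, synaptoporin, was higher in number 2 than 1 by 2.82 ± 0.36 (adjusted p = 0.00304), Sv2a by 1.02 ± 0.13 (adjusted p = 0.00272) and Sv2b by 1.64 ± 0.33 (adjusted p = 0.0141). Of the 3 probe sets of Sv2b, 2 passed over the numbers when probe sets were fitted. The other was at 0.27 for number 2 against 1, with an adjusted p of 0.835 over the numbers.

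Sv2c, named after its values were seen, ran the other way between numbers 2 and 3. Its values, given above, lay between -0.70 and -0.12 on the arrays numbered 2 and between -0.013 and 1.19 on those numbered 3, without overlap. The difference of number 2 against 3 was -0.99 ± 0.19 (adjusted p = 0.0375). Syngr1 did not pass over the numbers (adjusted p = 0.379).

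Of the synapsins and beta-synuclein, 3 of 4 differed. Syn2, a synapsin, which holds vesicles in the reserve pool, stood at 1.39 in 7B12, 0.40 in 11C7, 1.16 in IgG and 1.71 in NT on the arrays numbered 2. Syn2 was at -0.10 in 7B12, 0.22 in 11C7, -0.17 in IgG and 0.25 in NT on those numbered 3, and at -2.06 in 7B12, -1.76 in 11C7, -2.09 in IgG and -2.31 in NT on those numbered 1. The numbers did not overlap, and the arrays numbered 2 were the most spread. Number 2 exceeded number 1 by 3.22 ± 0.28 (adjusted p = 0.000895), 9.33-fold, and number 3 exceeded number 1 by 2.11 ± 0.28 (adjusted p = 0.00522). Syn1 differed by 1.79 ± 0.22 (adjusted p = 0.00286) between numbers 2 and 1, and Sncb, beta-synuclein, by 3.19 ± 0.32 (adjusted p = 0.0014). Syn3 did not pass (adjusted p = 0.214), although its arrays numbered 2, from -1.61 to -0.51, were all above those numbered 1, from -2.85 to -1.65.

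Of the 7 measured calcium sensors 3 differed. Syt4, a synaptotagmin whose gene is induced by neuronal activity, stood at 0.23 in 7B12, 0.24 in 11C7, 0.20 in IgG and 0.0007 in NT on the arrays numbered 2. Syt4 was at 0.60 in 7B12, 0.14 in 11C7, 0.15 in IgG and 0.18 in NT on those numbered 3, and at -1.71 in 7B12, -1.28 in 11C7, -1.98 in IgG and -1.80 in NT on those numbered 1. All arrays numbered 1 were low, while numbers 2 and 3 overlapped. Number 2 exceeded 1 by 1.86 ± 0.15 (adjusted p = 0.000797) and number 3 exceeded 1 by 1.96 ± 0.15 (adjusted p = 0.00324), with -0.10 between numbers 2 and 3. Syt1, the sensor of fast synchronous release, was higher in number 2 than 1 by 2.99 ± 0.31 (adjusted p = 0.00153), 7.97-fold, and Syt5 by 0.83 ± 0.19 (adjusted p = 0.0215). Syt3 had an F test at an adjusted p of 0.053. Syt2, Syt7 and Doc2b did not pass and were widely spread within a number. Syt2 ran from -3.69 to 0.10 on the arrays numbered 2, and Doc2b from -2.59 to 1.75 on those numbered 3. The only probe sets of Syt2 and Doc2b had 12-array medians of 0.62 and 0.69.

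The SNARE core and its recycling enzymes gave 5 of 7. Snap25, the SNARE protein of the plasma membrane cut by botulinum toxin A, stood at 1.34 in 7B12, 0.43 in 11C7, 1.44 in IgG and 1.52 in NT on the arrays numbered 2. Snap25 was at 0.036 in 7B12, 0.059 in 11C7, -0.14 in IgG and 0.12 in NT on those numbered 3, and at -1.91 in 7B12, -1.67 in 11C7, -2.01 in IgG and -2.36 in NT on those numbered 1. No value of one number reached those of another, and 11C7 2 was the lowest of those numbered 2. The difference of number 2 against 1 was 3.17 ± 0.27 (adjusted p = 0.00085), 9-fold, and that of 3 against 1 was 2.01 ± 0.27 (adjusted p = 0.00522). Napb, beta-SNAP, the adaptor of NSF in brain, stood at 2.17 in 7B12, 1.12 in 11C7, 1.89 in IgG and 2.14 in NT on the arrays numbered 2. Napb was at 0.048 in 7B12, 0.035 in 11C7, 0.013 in IgG and 0.60 in NT on those numbered 3, and at -1.0 in 7B12, -0.82 in 11C7, -1.27 in IgG and -1.28 in NT on those numbered 1. Number 2 stood above numbers 3 and 1 on every array. Number 2 exceeded 1 by 2.92 ± 0.25 (adjusted p = 0.000865) and exceeded 3 by 1.66 ± 0.25 (adjusted p = 0.0218). Stx1a, syntaxin-1A, was higher in number 2 than 1 by 3.31 ± 0.48 (adjusted p = 0.00468), Nsf, the ATPase of SNARE recycling, by 2.03 ± 0.22 (adjusted p = 0.00181), and Vamp1, a vesicle SNARE, by 0.95 ± 0.13 (adjusted p = 0.00365). Napa missed the F test (adjusted p = 0.0501), and Vamp2, the main vesicle SNARE of the forebrain, did not pass (0.34). Of its 2 probe sets, the one of median 1 had an adjusted p of 0.00617 over the numbers when probe sets were fitted, and the one of median under 1 had 0.866.

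Among the priming factors, Rab3 proteins and complexins 5 of 8 differed. Cplx1, complexin-1, which clamps the partly zipped SNARE complex, stood at 1.96 in 7B12, 0.67 in 11C7, 1.55 in IgG and 1.90 in NT on the arrays numbered 2. Cplx1 was at -0.065 in 7B12, -0.10 in 11C7, 0.12 in IgG and 0.47 in NT on those numbered 3, and at -1.89 in 7B12, -1.81 in 11C7, -1.34 in IgG and -1.98 in NT on those numbered 1. The numbers did not overlap. Number 2 exceeded 1 by 3.28 ± 0.26 (adjusted p = 0.000778), 9.68-fold, 3 exceeded 1 by 1.86 ± 0.26 (adjusted p = 0.00631) and 2 exceeded 3 by 1.42 ± 0.26 (adjusted p = 0.0324). Rab3a and Rab3c, small GTPases of the vesicle surface, were higher in number 2 than 1 by 2.38 ± 0.26 (adjusted p = 0.00183) and 2.12 ± 0.20 (adjusted p = 0.00107). Cplx2 was higher by 2.89 ± 0.53 (adjusted p = 0.0109), although its value on 11C7 2, -0.51, was below the 1.59 of 7B12 2, the 1.54 of IgG 2 and the 2.18 of NT 2. Rph3a, rabphilin, was higher by 1.68 ± 0.37 (adjusted p = 0.0196). Unc13a, Unc13b and Cadps did not pass. When probe sets were fitted, that of median 1 in Cadps had an adjusted p of 0.0067 over the numbers, and that of median under 1 had 0.21.

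Of the 4 active zone scaffolds 3 differed. Rims2, a RIM scaffold, stood at 0.83 in 7B12, 0.39 in 11C7, 0.94 in IgG and 0.90 in NT on the arrays numbered 2. Rims2 was at -0.44 in 7B12, -0.33 in 11C7, -0.23 in IgG and 0.087 in NT on those numbered 3, and at 0.38 in 7B12, -0.44 in 11C7, -0.09 in IgG and 0.03 in NT on those numbered 1. Here number 3 was not between the others: arrays numbered 2 were all above the rest, and numbers 3 and 1 overlapped. Number 2 exceeded 1 by 0.80 ± 0.16 (adjusted p = 0.0148), and 3 against 1 gave -0.20 ± 0.16 (adjusted p = 0.431). Rims1 differed by 2.95 ± 0.59 (adjusted p = 0.0145) between numbers 2 and 1 and Pclo, the scaffold piccolo, by 2.56 ± 0.58 (adjusted p = 0.0226). When probe sets were fitted, that of median 1 in Pclo did not pass over the numbers (adjusted p = 0.249), and that of median under 1 did (0.0229). They were at 1.52 and 3.60 for number 2 against 1. Bsn was just over the threshold of the F test (adjusted p = 0.0555). Of its 2 probe sets, both of median 1, 1 had an adjusted p of 0.0048 when probe sets were fitted, and the other 0.72.

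The 2 vesicular glutamate transporters moved in opposite directions. Slc17a7, VGLUT1, which loads glutamate in hippocampal principal neurons, stood at 1.76 in 7B12, -0.38 in 11C7, 0.95 in IgG and 1.63 in NT on the arrays numbered 2. Slc17a7 was at 0.15 in 7B12, 0.21 in 11C7, -0.069 in IgG and 0.20 in NT on those numbered 3, and at -1.98 in 7B12, -2.05 in 11C7, -2.28 in IgG and -3.10 in NT on those numbered 1. All arrays numbered 1 were below all others, and 11C7 2 was the lowest of those numbered 2. Number 2 exceeded 1 by 3.34 ± 0.45 (adjusted p = 0.00352), 10.1-fold, the largest difference of the 45 genes. Slc17a6, VGLUT2, more typical of subcortical glutamatergic neurons, stood at 0.32 in 7B12, -0.41 in 11C7, -0.29 in IgG and 0.10 in NT on the arrays numbered 2. Slc17a6 was at -1.22 in 7B12, 0.015 in 11C7, -0.62 in IgG and -0.089 in NT on those numbered 3, and at 0.85 in 7B12, 0.98 in 11C7, 0.90 in IgG and 0.93 in NT on those numbered 1. Its 4 arrays numbered 1 were within 0.13 of each other and above all others. Number 2 was lower than 1, at -0.98 ± 0.28 (adjusted p = 0.0462), and so was number 3, at -1.39 ± 0.28 (adjusted p = 0.0159). Slc17a6 and Synj1 were singled out after their values were seen.

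Of the 4 endocytosis genes 3 differed. Dnm1, dynamin-1, the GTPase that pinches off vesicles, stood at 1.60 in 7B12, 0.65 in 11C7, 0.92 in IgG and 1.62 in NT on the arrays numbered 2. Dnm1 was at -0.026 in 7B12, 0.12 in 11C7, -0.15 in IgG and 0.20 in NT on those numbered 3, and at -0.96 in 7B12, -1.16 in 11C7, -0.95 in IgG and -0.99 in NT on those numbered 1. The numbers did not overlap, and those numbered 3 and 1 each formed a tight set. Number 2 exceeded 1 by 2.21 ± 0.19 (adjusted p = 0.000876) and 3 exceeded 1 by 1.05 ± 0.19 (adjusted p = 0.0121). Amph, amphiphysin, was higher in number 2 than 1 by 1.27 ± 0.13 (adjusted p = 0.00147). Synj1, the lipid phosphatase that strips clathrin coats, stood at 0.37 in 7B12, 0.60 in 11C7, -0.015 in IgG and 1.03 in NT on the arrays numbered 2. Synj1 was at -0.72 in 7B12, -0.57 in 11C7, -0.32 in IgG and -0.40 in NT on those numbered 3, and at 0.15 in 7B12, 0.16 in 11C7, -0.03 in IgG and 0.23 in NT on those numbered 1. The arrays numbered 3 were its lowest. It was lower in number 3 than in 1, at -0.63 ± 0.18 (adjusted p = 0.0482), and number 2 exceeded 3 by 0.9986 ± 0.18 (adjusted p = 0.031). The F test over the numbers gave an adjusted p of 0.24 for Snap91, 0.262 for Nrxn2 and 0.27 for Nrxn3. When probe sets were fitted, the probe set of median 1 had an adjusted p of 0.0062 in Snap91 and 0.010 in Nrxn3. These were higher in number 2 than 1, by 1.25 and 2.22. The probe sets of median under 1 had 0.60 and 0.62. Those of Nrxn2, both of median 1, had 0.027 and 0.67, with opposite signs between numbers 2 and 1.

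**Figure D3:**
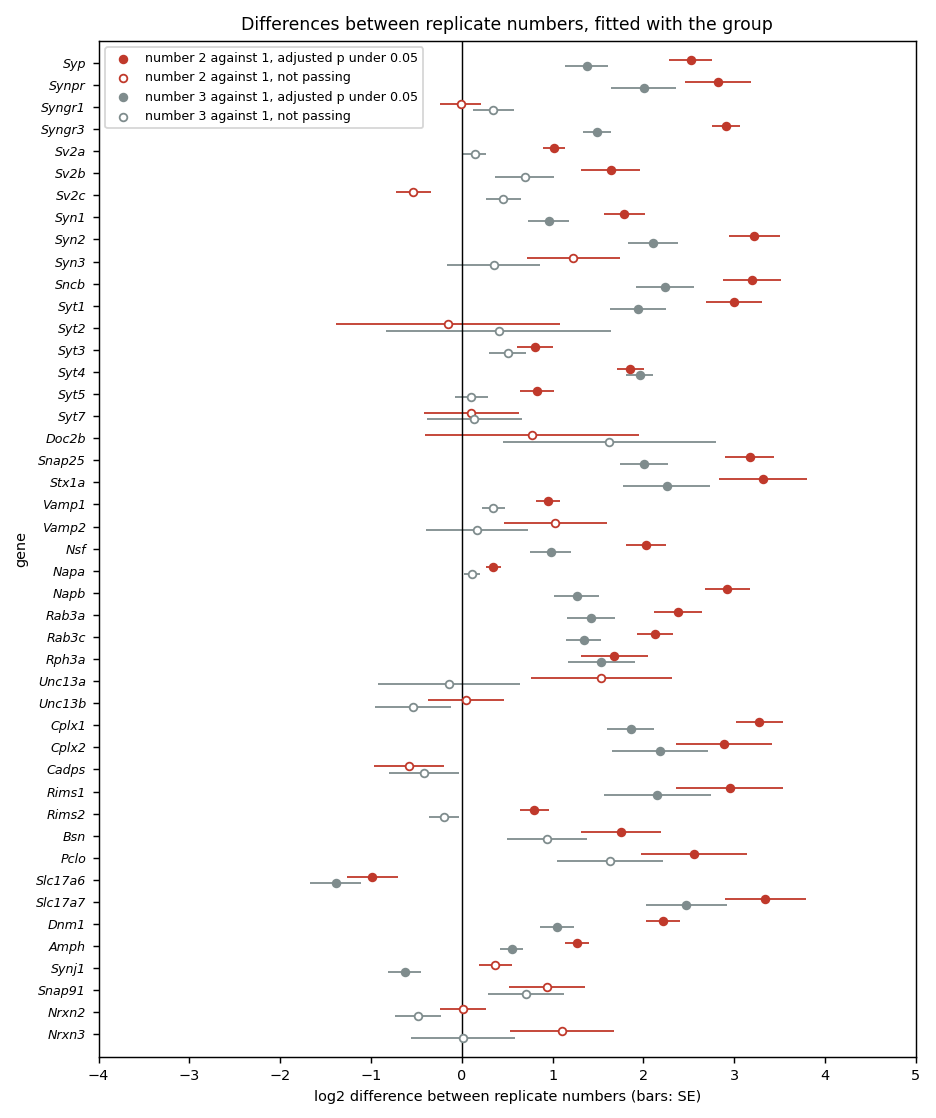
Log2 difference (horizontal axis) between replicate numbers for each of the 45 release genes (rows), number 2 against 1 and number 3 against 1, with bars of 1 SE. Filled points passed an adjusted p of 0.05 on values scaled to the array median. Slc17a7 and Slc17a6 lie at opposite ends, at 3.34 and -0.98 for number 2 against 1. Scaled to general neuron markers, 16 genes were lower and 10 higher in number 2, where the median of all genes was -2.05.

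No overlap between number 2 and number 1 was seen in 31 release genes with number 2 higher (12.3% of all genes) and in 2, Cadps and Slc17a6, with it lower (12.5%). Between numbers 3 and 1 it was seen in 23 with number 3 higher (13.9%) and in 2, Slc17a6 and Synj1, with it lower (15.3%). Between numbers 2 and 3 it was seen in 17 with number 2 higher (7.03%) and in 1, Sv2c, with it lower (6.06%). The highest mean was that of number 2 in 37 of 45 (29.6% of all genes), and the lowest that of number 1 in 35 (36.8%). The 12 genes with all of number 2 above all of 3 above all of 1 (1.6% of all genes) were Syp, Syngr3, Syn2, Snap25, Stx1a, Vamp1, Nsf, Napb, Rab3a, Cplx1, Dnm1 and Amph. The probe sets of a gene mostly ran alike. Of the 72 probe sets 51 passed over the numbers when probe sets were fitted, and in 6 of 22 genes with several of them (Cadps, Nrxn2, Nrxn3, Syngr1, Syt7 and Vamp1) probe sets had opposite signs between numbers 2 and 1. In 3 of these 6 genes a probe set had a 12-array median under 1. For Cadps, that probe set was at -2.05 for number 2 against 1, and the probe set of median 1 was at 0.89. The lower values of Cadps in number 2, noted above, were thus not seen in its probe set of median 1.

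Other markers moved with the numbers beside the release genes. All 15 listed general neuron markers were above 0 in number 2 against 1 and 12 differed over the numbers. Their mean was 0.88 ± 0.28 on the arrays numbered 2, -0.088 ± 0.063 on those numbered 3 and -1.15 ± 0.19 on those numbered 1 (SD, n = 4). Of 10 interneuron markers 9 differed, with means of 0.98 ± 0.37 on the arrays numbered 2, 0.01 ± 0.15 on those numbered 3 and -0.67 ± 0.21 on those numbered 1, and of 9 principal neuron markers 6, with 0.72 ± 0.40 on the arrays numbered 2, -0.061 ± 0.15 on those numbered 3 and -1.11 ± 0.41 on those numbered 1. Not all ran alike: for number 2 against 1, 7 interneuron markers passed as higher and 1 as lower. Of the principal neuron markers 5 passed as higher and 1 as lower. All 8 measured oligodendrocyte markers differed, with 0.12 ± 0.16 on the arrays numbered 2, 0.56 ± 0.22 on those numbered 3 and -0.73 ± 0.16 on those numbered 1. Microglial markers differed in 7 of 9, with -0.34 ± 0.26 on the arrays numbered 2, 0.56 ± 0.15 on those numbered 3 and -0.041 ± 0.26 on those numbered 1, and astrocyte markers in 1 of 8, with 0.02 ± 0.22 on the arrays numbered 2, 0.025 ± 0.19 on those numbered 3 and 0.055 ± 0.058 on those numbered 1. Of 5 endothelial markers 1 differed, of 6 fibroblast and meningeal markers 2, of 6 oligodendrocyte precursor markers 1 and of 4 blood markers 1. On the arrays numbered 2, 3 and 1 the endothelial means were -1.08 ± 0.24, -0.20 ± 0.56 and 0.044 ± 0.41. In that order the fibroblast means were 0.42 ± 1.07, -0.41 ± 0.39 and 0.31 ± 0.14. Those of precursor markers were -0.00051, 0.097 and 0.0021, and those of blood markers -0.60, -0.54 and -0.995. The part of cell makeup in the release genes' differences was not tested. When each array was instead scaled to its mean of general neuron markers, the median of the release genes for number 2 against 1 was -0.38, with 10 higher and 16 lower, while all genes moved by -2.05. On that scale 27 of 45 differed over the numbers, 19 of them among the 30 called before, and 11 of the 30 lost their call. These counts take no account of direction. Sv2a, Rims2, Vamp1, Syt5 and Amph were called on both scales, but turned to -1.01, -1.23, -1.08, -1.19 and -0.76 for number 2 against 1. On that scale Slc17a7 was at 1.32, Cplx1 at 1.25, Snap25 at 1.14, Syp at 0.49 and Slc17a6 at -3.01. With the values as deposited the median was 1.61, and with quantile normalization 1.55.

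**Figure D4:**
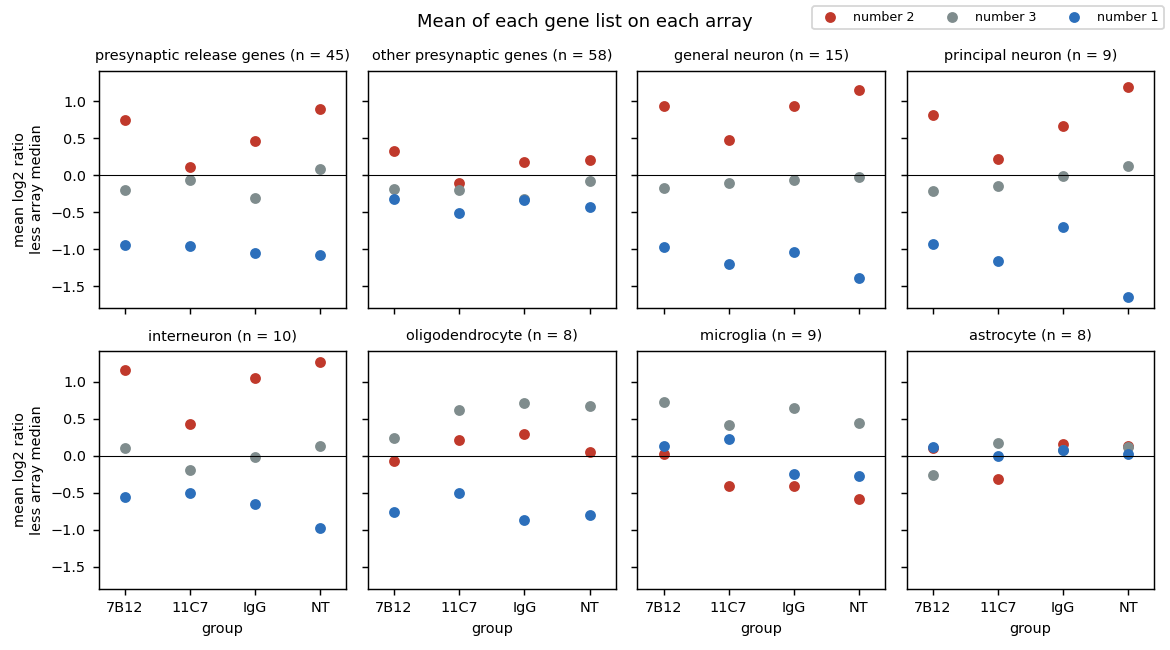
Mean log2 ratio less the array median (vertical axis) of each gene list on every array, by group (horizontal axis) and replicate number (colour), for the release genes, other presynaptic genes and 6 sets of cell type markers. The neuron lists separate the numbers in the order 2, 3, 1 as the release genes do, the oligodendrocyte list puts number 1 lowest, and the astrocyte list mixes them.

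A list of 68 other presynaptic genes, of which 58 were measured, gave 20 that differed over the numbers (34.5% of those measured). Number 2 was higher than 1 in 17 and lower in 3, and the median was 0.29. The smallest p were those of Slc32a1, the vesicular GABA transporter, at 2.43 ± 0.15, Cadps2, a priming factor, at 1.82 ± 0.22, Napg, gamma-SNAP, at 1.06 ± 0.14, and Rimbp2, a RIM-binding scaffold, at 1.68 ± 0.23. In the group comparisons 0 of the 58 passed the adjusted p. Stxbp6 had the smallest p in 7B12, at -0.60 ± 0.24 (adjusted p = 0.737), and Slc18a3, the vesicular acetylcholine transporter, in 11C7, at -1.48 ± 0.71.

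Within a number, arrays could be set against the IgG and NT arrays of the same number, as a description. For 7B12 the median difference of the release genes was 0.089 in number 2, -0.089 in number 3 and 0.11 in number 1. For 11C7 it was -0.62 in number 2, -0.026 in number 3 and 0.14 in number 1, against 0.048, -0.0014 and 0.039 over all genes. 11C7 2 was the lowest of the 4 arrays numbered 2 in 30 of 45 release genes (27.8% of all genes) and at least 2-fold below its controls in 14 (8.06%). General neuron markers on 11C7 2 were lower by 0.57 on average and interneuron markers by 0.73 in the same comparison, and the part of this in the release genes was not tested. On 11C7 3 and on 11C7 1, 3 release genes each were at least 2-fold below their controls, 6.67% of the 45, against 5.72% and 6.87% of all genes. 11C7 2 was singled out after its values were seen. Between controls, IgG 2 less NT 2 had a median of -0.41, with 37 of 45 below 0 (51.7% of all genes). IgG 3 less NT 3 had -0.27, also with 37 below 0 (48.0%). IgG 1 less NT 1 had 0.075, with 18 below 0 (52.1%). At least 2-fold lower were 7 in number 2 (7.70%), 4 in number 3 (6.75%) and 3 in number 1 (4.45%).

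**Figure D5:**
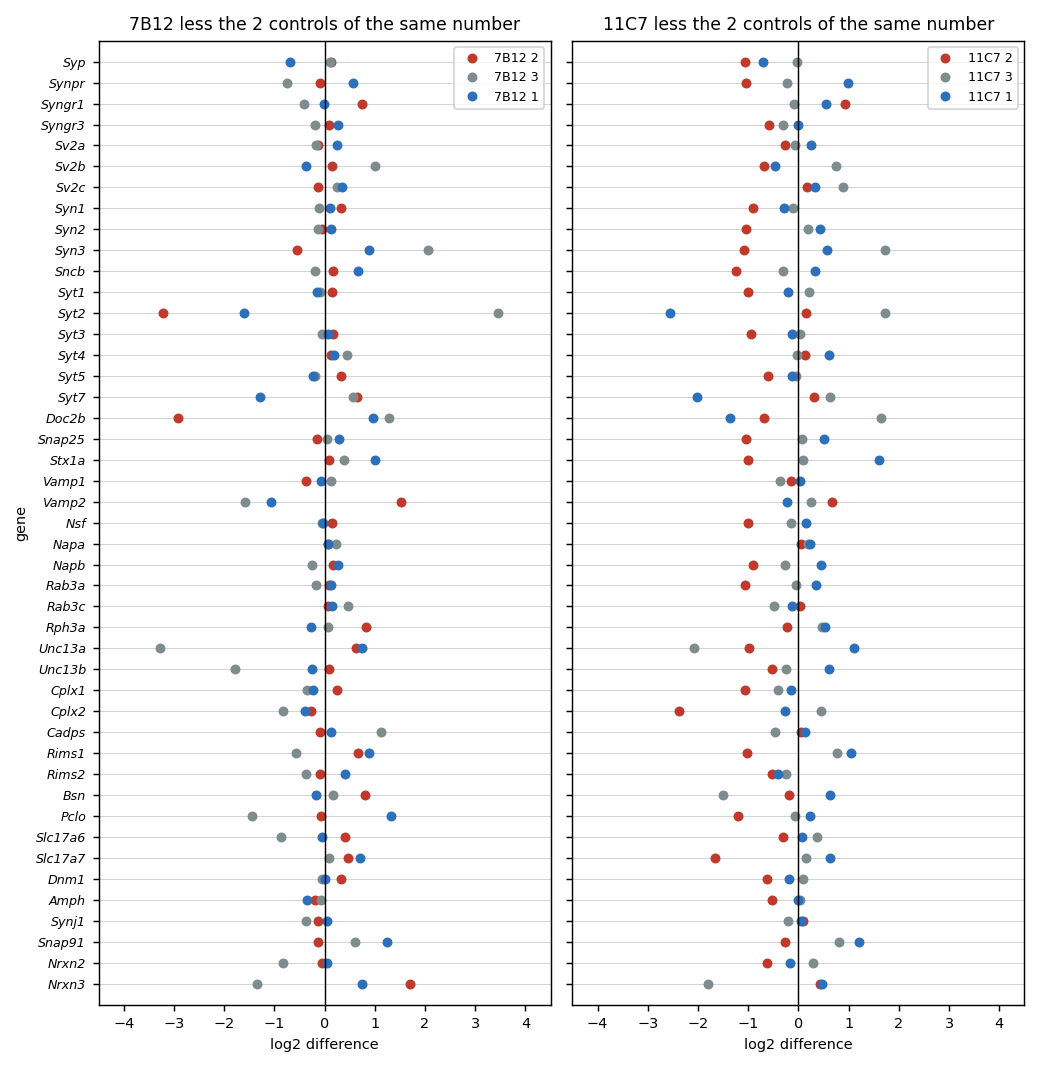
Log2 difference (horizontal axis) of each release gene (rows) between an antibody array and the mean of the IgG and NT arrays with the same replicate number, for 7B12 (left) and 11C7 (right), coloured by number. The points of 11C7 2 lie left of 0 in 34 of 45 genes, while the other arrays scatter on both sides. Between the controls of number 2, not drawn, IgG was below NT in 37 of 45.

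Genes with the same sign in all 3 numbers were few. 7B12 was above its controls in Syt4, Stx1a, Napa, Rab3c and Slc17a7, 5 of 45 (19.5% of all genes), and below in Cplx2 and Amph, 2 of 45 (15.9%). 11C7 was above in Sv2c and Napa, 2 of 45 (14.2%), and below in Syp, Syngr3, Syn1, Syt5, Cplx1 and Rims2, 6 of 45 (10.6%). IgG was below NT in 10 of 45 (13.1%): Syp, Synpr, Syngr3, Syt3, Vamp1, Rims1, Bsn, Slc17a6, Amph and Nrxn3. It was above NT in 0 of 45 (12.1%).

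Promoters are shown for 5 members that stand for the patterns over the numbers. Syn1, Syp, Cplx1 and Slc17a7 were higher in numbers 2 and 3 than in 1, and Slc17a6 was lower. RefSeq promoters on GRCr8 were found for 34 of the 45 genes, and the 200 bases upstream of the start follow, 5′ to 3′, with matches to a GC box (GGGCGG) or a cAMP response element (TGACGTCA), on either strand, in capitals. Syn1 lies at chrX:3725545-3725744 (plus strand), Syp at chrX:17536450-17536649 (minus), Cplx1 at chr14:1328873-1329072 (plus), Slc17a7 at chr1:104786005-104786204 (plus) and Slc17a6 at chr1:110348247-110348446 (plus).
Syn1: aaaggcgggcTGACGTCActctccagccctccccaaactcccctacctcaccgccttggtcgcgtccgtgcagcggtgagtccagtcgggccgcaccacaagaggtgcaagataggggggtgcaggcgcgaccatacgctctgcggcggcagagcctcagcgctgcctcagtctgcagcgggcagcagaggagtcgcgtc
Syp: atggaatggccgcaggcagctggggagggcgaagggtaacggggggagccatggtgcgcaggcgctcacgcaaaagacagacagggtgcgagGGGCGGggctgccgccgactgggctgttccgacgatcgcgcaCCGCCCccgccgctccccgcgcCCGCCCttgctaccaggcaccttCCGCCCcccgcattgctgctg
Cplx1: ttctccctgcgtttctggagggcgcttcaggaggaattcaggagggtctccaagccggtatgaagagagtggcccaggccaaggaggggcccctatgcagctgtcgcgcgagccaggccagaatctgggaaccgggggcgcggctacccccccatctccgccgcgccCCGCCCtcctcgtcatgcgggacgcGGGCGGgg
Slc17a7: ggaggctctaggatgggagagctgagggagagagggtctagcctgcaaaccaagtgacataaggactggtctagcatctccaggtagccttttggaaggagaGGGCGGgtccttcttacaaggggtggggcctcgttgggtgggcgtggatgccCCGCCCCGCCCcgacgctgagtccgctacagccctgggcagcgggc
Slc17a6: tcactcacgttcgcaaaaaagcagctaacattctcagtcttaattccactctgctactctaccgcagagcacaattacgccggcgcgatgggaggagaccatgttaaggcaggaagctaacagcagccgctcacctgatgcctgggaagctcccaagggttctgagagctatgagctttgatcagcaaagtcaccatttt
In the 250 bases upstream, GGGCGG was found on either strand in 22 of 34 promoters (64.7%), against 32.4% of 27457 promoters in the table. TGACGTCA was found in 3, those of Napa, Syn1 and Vamp1 (8.82%, against 1.70%). GGACAGC, the 3′ portion of the RE1 element, was found in 6 (17.6%, against 5.34%), TTCAGCACC, its 5′ portion, in 0 (against 0.317%), and TATAAA, the TATA box, in 0 (against 13.1%). Matches in Slc17a7 overlap each other, where 2 GC boxes share a base. A match describes letters in this window and is not a test of binding.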

How the data were processed

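The 12 slice culture samples were each run on an Affymetrix rat array after biotin labelling, as the labels' protocols say. The deposited values are a ratio per probe set, which the authors made with MAS5 in addition to GCOS 1.4, both named in the submitters' processing notes, and, per the labels' design text, normalised per chip and per gene in GeneSpring to the median of the controls. In the file 76.4% of probe sets had a median of 1 (within 0.0015) over all 12 arrays, and 11.2% when the median was taken over the 6 controls. The other 7319 (23.6%) had a 12-array median under 1. A constant divisor per probe set leaves log2 differences between arrays as they are. From 31099 probe sets 57 spike-ins were removed. Of the rest, 20826 (67.1%) carried 1 gene symbol in the platform annotation, 436 several and 9780 none.

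Log2 ratios less the array median were averaged per gene. The group tests used limma 3.58.1 under R 4.3.3 (lmFit with a mean for each group, contrasts, eBayes without a trend) on all 14217 genes, with two-sided tests and Benjamini-Hochberg adjustment. The comparison of replicate numbers added the number to the group and used a moderated F test. The alternatives were other scalings, probe set choices, pseudocounts, array weights, a trend, IgG alone as control, the number as a block and leaving out each array. The fits were tested on simulated data. Named genes were the 6 with the smallest p in each comparison, the smallest over the numbers in each class, and Rtn4. The members, lists and tests were chosen with earlier results of these data known.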

Additional observations from a re-analysis of the deposited data

Results flagged for a closer look

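Each of the 45 release genes gives 3 sets of 4 arrays with the same replicate number, and in 10 of these 135 sets (7.41%) 1 array stood apart from the other 3, its gap to the nearest, as a share of the set's range, exceeding Dixon's 95% critical value. Chance gives about 1 in 20 sets. The arrays with the same number come from 4 different groups. On 11C7 2, Syt1 was at 0.27, Snap25 at 0.43 and Pclo at -0.25, each below the other 3 arrays numbered 2, which lay at 1.27 to 1.43, 1.34 to 1.52 and 0.89 to 0.98. On NT 2, Syt4 was at 0.0007, below 0.20 to 0.24. Among the arrays numbered 3, Syt4 on 7B12 3 was at 0.60, above 0.14 to 0.18, Napb on NT 3 at 0.60, above 0.013 to 0.047, and Bsn on 11C7 3 at -1.34, below 0.13 to 0.32. Among those numbered 1, Syngr3 on 7B12 1 was at -1.21, above -1.50 to -1.48, Dnm1 on 11C7 1 at -1.16, below -0.99 to -0.95, and Cadps on IgG 1 at -0.52, below -0.23 to -0.20. The causes were not tested.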

How the results depend on the processing

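In every alternative run, 0 of 45 release genes passed the adjusted p in each group comparison, and 0 passed the plain analysis of variance with a 1.2-fold limit (422 of all genes, 2.97%). With the replicate block 0 passed as well, the smallest adjusted p of the release genes being 0.780 in 11C7 and 0.587 in 7B12. At an unadjusted p under 0.05 the block gave Syp, Sv2c and Rims2 in 11C7 (5.99% of all genes) and 0 in 7B12 (11.8%). Its 95% intervals were narrower, within a 2-fold change in 27 of 45 release genes for 7B12 and 25 for 11C7, against 10 and 6 without the block, Snap25 included in both. The main group tests did not take the numbers as pairs, and the labels do not say what arrays of a number share. Correlations between deviations of same-number arrays nevertheless ran from 0.097 to 0.43, over 0.1 in 17 of 18 pairs. Those of other pairs reached at most 0.094, and 12 of 12 arrays correlated best with an array of their own number. With the block the 11C7 median was 0.069 without 11C7 2. The count over the numbers was 30 and ran from 23 to 31 without 1 array, from 27 (neuron scaling) to 37 (genes with any probe set that passed, when probe sets were fitted) otherwise. Of the 30, 14 were called in every alternative and 20 in all but the neuron scaling. A call here is a passed F test, whatever its direction. Under the neuron scaling Sv2a and Rims2, for example, kept their call but were lower in number 2 than 1, at -1.01 and -1.23.

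Without 1 array, with or without the block, medians ran from -0.47 to 0.59 in 7B12, -0.46 to 0.23 in 11C7, -0.35 to 0.19 for both and -0.79 to 0.27 in IgG against NT. With the block only, they ran from -0.095 to 0.13 in 7B12 and -0.32 to 0.069 in 11C7. For both antibodies they ran from -0.17 to 0.015, and in IgG against NT from -0.44 to -0.037. Signs turned in single genes. With the probe set of smallest SD, and equally without those of median under 1, Cadps was at -0.040 and Snap91 at -0.063 in 7B12, and Snap91 at -0.11 in 11C7 and -0.086 for both antibodies. Leaving out 1 array gave -0.043 to 0.70 for Cadps and -0.51 to 0.15 for Nrxn2 in 7B12, and -1.33 to 0.077 for Snap91 in IgG against NT. The cause was not tested.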
